A study of Mus musculus with 3 samples.

Results

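The cells described here are the Apoe+ Ptcra+ non-cycling thymocytes, a subset labelled DN3-like that was picked out by raw transcript counts. A cell was a member when it had at least 1 UMI (a counted transcript molecule) of Apoe and at least 1 of Ptcra, and no UMI of Mki67, Top2a, Trac or Cd79a. These 261 cells were found among 21879 cells that had 500 to 5000 genes and at most 7% mitochondrial counts, of 23283 cells deposited. They were compared with 2606 cells of the same runs that had Ptcra, no Apoe, and neither Mki67 nor Top2a (Apoe-zero comparators). The rule for the comparators did not remove cells with Trac or Cd79a, and so a second set of comparators was drawn that also lacked both genes and was matched to the members in total UMIs (matched comparators).

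The thymocytes came from untreated C57BL/6 mice, labelled as 6 weeks old, with 4 thymi pooled per sample, and were profiled by 10x single-cell RNA sequencing in 3 runs. Run 1 held total double negative (DN) and γδ thymocytes and gave 75 members among 5516 cells. Run 2 was sorted for the CD44+ stages DN1 and DN2 without γδ cells and gave 36 members among 8852 cells. Run 3 mixed separately sorted DN1 plus DN2, DN3 and γδ cells and gave 150 members among 7511 cells. Each sort was made once, so that the run and the sort cannot be told apart. The median depth of the members was 3331, 4846 and 7738 UMIs in runs 1, 2 and 3, against 3457, 4514 and 7116 in the comparators. Runs 1 and 2 shared 72 cell barcodes, runs 1 and 3 shared 3, and runs 2 and 3 shared 0.

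DN3 thymocytes are the stage at which the T cell receptor β chain is rearranged by the Rag1 and Rag2 recombinase. Ptcra encodes the pre-T cell receptor α chain, which pairs with a successful β chain and is a classical marker of this stage. Apoe encodes apolipoprotein E, a carrier of cholesterol and other lipids that is made in quantity by macrophages and is not a usual marker of thymocytes.

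Most members held a single Apoe transcript. In run 1, 63 of 75 members had 1 Apoe UMI, 11 had 2 and 1 had 3 or more. In run 2 the corresponding numbers were 28, 6 and 2 of 36 members, and in run 3 they were 103, 32 and 15 of 150. Over all runs, 194 members lay at the threshold of 1 UMI, while the 2606 comparators lay just outside it at 0. The summed Apoe level of the members was 278 CPM (UMIs of a gene scaled to the same total UMI count in every class) in run 1, 256 in run 2 and 186 in run 3, values that follow from the rule. The median number of Ptcra UMIs was 2, 2 and 3 per member and 2, 1 and 2 per comparator in runs 1, 2 and 3.

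In runs 2 and 3, Apoe was seen more often in Ptcra+ non-cycling cells than in Nkg7+ Trac+ lymphocytes. Cd79a+ Ptcra-zero cells of the B lineage had it more often still (13.8 and 29.9% after the thinning described next). Because deeper cells show more genes, each cell was thinned to 2000 UMIs. After thinning, 4.61% of the Ptcra+ non-cycling cells of run 1 had an Apoe UMI (exact 95% binomial interval 3.43 to 6.05%), 2.04% of those of run 2 (1.21 to 3.21%) and 5.94% of those of run 3 (4.52 to 7.64%). In Nkg7+ Trac+ Ptcra-zero lymphocytes, which should lack the gene, the shares were 1.89% (0.229 to 6.65%), 0.299% (0.12 to 0.616%) and 1.71% (1.11 to 2.51%). The intervals overlapped in run 1, where 106 of the lymphocytes were available, and did not overlap in runs 2 and 3. Without thinning, 7.34, 4.76 and 17.4% of the Ptcra+ non-cycling cells had an Apoe UMI at median depths of 3434, 4545 and 7257 UMIs, against 5.66, 0.77 and 4.38% of the Nkg7+ Trac+ lymphocytes at 5314, 2888 and 6502 UMIs. All of these intervals cover counting error only.

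**Figure D1:**
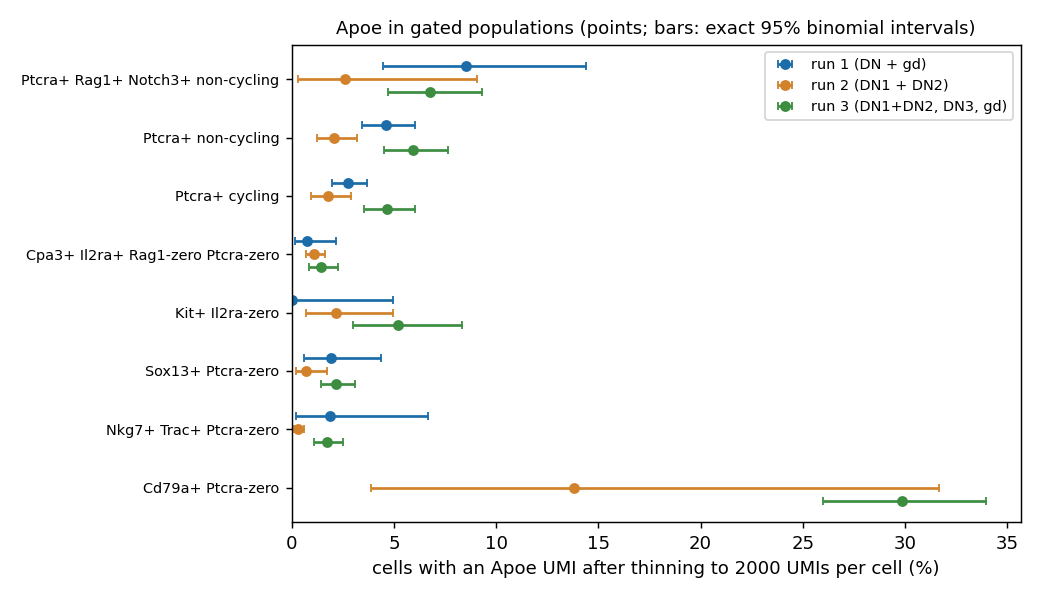
Share of cells with an Apoe UMI after thinning to 2000 UMIs per cell (x axis, percent) in 8 gated populations (y axis) of the 3 runs; bars are exact 95% binomial intervals, and the 4 Cd79a+ cells of run 1 are not drawn. The Ptcra+ non-cycling cells lie at 4.61, 2.04 and 5.94%, the Nkg7+ Trac+ lymphocytes at 1.89, 0.299 and 1.71%, and the Cd79a+ cells of run 3 at 29.9%.

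Shares at other stages varied between runs. Cycling Ptcra+ cells had thinned shares of 2.74, 1.75 and 4.66% in runs 1, 2 and 3. Cpa3+ Il2ra+ cells without Rag1 or Ptcra, the pattern of an earlier DN2 stage, had 0.746, 1.07 and 1.41%. Sox13+ Ptcra-zero cells, which include immature γδ thymocytes, had 1.89, 0.683 and 2.14%. Kit+ Il2ra-zero cells, an earlier progenitor pattern, had 0, 2.15 and 5.21%, and their intervals overlapped those of the Ptcra+ non-cycling cells in each run. The highest level in run 3 was that of Cd79a+ Ptcra-zero B-lineage cells, of which 29.9% had Apoe after thinning, with a summed level of 1038 CPM over 529 cells. With every Trac+ and Cd79a+ cell left out, the Apoe level of the Ptcra+ non-cycling cells was 20.8, 12.9 and 35 CPM (exact 95% Poisson intervals 16.7 to 25.5, 9.49 to 17.1 and 30.7 to 39.9), against 5.31, 6.05 and 7.31 CPM in the Cpa3+ Il2ra+ cells (2.65 to 9.5, 4.83 to 7.48 and 6.01 to 8.81). These intervals did not overlap in any run, while the thinned shares of the same cells overlapped in run 2, at 2.09% (1.2 to 3.37%) and 1.21% (0.762 to 1.83%). In run 2, 9 of the 48 Apoe UMIs lay in 3 members that also had a C1q transcript of macrophages. With Trac+ and Cd79a+ cells left out, cycling Ptcra+ cells were at 14.5, 12.05 and 20.1 CPM (12.5 to 16.8, 9.56 to 15 and 17.8 to 22.7). Their intervals overlapped those of the Ptcra+ non-cycling cells in runs 1 and 2. Without exclusions, Kit+ Il2ra-zero cells were at 5.29, 15.1 and 67.8 CPM, and Ptcra+ non-cycling cells at 20.7, 12.25 and 63.1 CPM.

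The members carried transcripts found at the DN3 stage. Il2ra and Dntt are given without their levels in DN2-pattern cells, so that they do not place the members at DN3 rather than DN2. Il2ra, which encodes the CD25 surface marker of DN2 and DN3 cells, was at 260, 352 and 586 CPM in the members of runs 1, 2 and 3. Dntt, which adds bases at receptor junctions, was at 1426, 1739 and 1303 CPM. Notch3 was at 116, 37.3 and 148 CPM in the members against 20.7, 13.8 and 19.2 CPM in the Cpa3+ Il2ra+ cells, so that all 3 runs were higher in the members. Cpa3, a DN2-stage gene, was at 9.18, 90.7 and 26.5 CPM in the members. Run 2 was sorted on CD44, a marker that DN3 cells have lost, and its members had the lowest Notch3 and the highest Cpa3 of the 3 runs. In that run the paper told DN2b from DN2a cells by genes that include Ptcra, Rag1 and Notch3. The members of run 2 can therefore be DN2b cells, and the DN3-like label was not tested for them. Cells that also had Rag1 and Notch3 made up 25.3, 8.33 and 63.3% of the members and 12.4, 8.69 and 51.7% of the comparators.

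Few genes set the members apart from other Ptcra+ cells. UMIs were summed per run and class, and the 6 sums were compared by edgeR's quasi-likelihood test with the run as a block, without the 6 genes of the rule. Of 9956 genes tested, 9 were higher and 34 lower in the members at an adjusted p under 0.05, which is 0.432% of the genes (0.0904% higher and 0.342% lower). Against the matched comparators, 11 genes were higher and 13 lower of 9358 tested (0.118 and 0.139%, together 0.256%), and 20 genes were called in both comparisons, 7 of them higher and 13 lower. The calls rest on the block and on run 3. No gene was called without the block, where 52 had an unadjusted p under 0.05. DESeq2 called 0 higher and 4 lower (Crip1, Ccl5, Tmsb4x and Tmsb10), with 114 at an unadjusted p under 0.05. Leaving out run 3 left 2 higher and 9 lower in edgeR.

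Rag1, the recombinase subunit, was higher in the members in all 3 runs. It was at 245, 139 and 528 CPM in the members of runs 1, 2 and 3, and at 163, 122 and 400 CPM in the matched comparators. The gap was widest in runs 1 and 3 and small in run 2. The log2 fold change was 0.40 ± 0.08 (SE, 3 runs, adjusted p = 0.000389) against all comparators and 0.42 ± 0.08 (adjusted p = 0.000728) against the matched ones, and without run 3 it was 0.55 against all comparators (adjusted p = 0.224). Its partner Rag2 was at 45.9, 48 and 29.7 CPM in the members and at 49.4, 46.3 and 40.1 CPM in the matched comparators, with a log2 fold change of -0.28 ± 0.21 (adjusted p = 0.998).

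A pair of histone genes and Slmap were also higher. Hist1h2ap, a replication-dependent histone H2A gene, was at 174, 272 and 690 CPM in the members and 153, 218 and 534 CPM in the matched comparators (log2 fold change 0.34 ± 0.08, adjusted p = 0.0116). Hist1h1b, a linker histone gene, was at 9.18, 5.33 and 201 CPM against 6.48, 1.85 and 136 CPM, so that its level came almost wholly from run 3 (0.57 ± 0.14, adjusted p = 0.0253). Slmap, which encodes a membrane-associated protein, was at 49, 42.7 and 62.7 CPM against 29.6, 24.1 and 38 CPM (0.73 ± 0.18, adjusted p = 0.0341). The members were higher in each run for these 3 genes. None of them was called when run 3 was left out, with log2 fold changes against all comparators of 0.29, 0.52 and 0.66 for Hist1h2ap, Hist1h1b and Slmap, and Slmap was not called without run 1 either (0.74, adjusted p = 0.379).

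Trdc and Tcrg-C1, constant regions of the γδ receptor, were lower in the members. Trdc, the δ chain constant region, was at 367, 416 and 192 CPM in the members of runs 1, 2 and 3 and at 425, 609 and 282 CPM in the matched comparators (log2 fold change -0.46 ± 0.08, adjusted p = 4.98e-05). Tcrg-C1, a γ chain constant region, was at 624, 1125 and 347 CPM against 746, 1686 and 462 CPM (-0.43 ± 0.06, adjusted p = 3.21e-08). The members were lower in every run for both genes. Against all comparators, Tcrg-C1 and Trdc had log2 fold changes of -0.37 and -0.41. There Tcrg-C1 was called whichever run was left out, with adjusted p between 5.19e-05 and 0.0149, while Trdc was not called without run 3 (-0.33, adjusted p = 0.505). DESeq2 called neither gene against all comparators (adjusted p = 0.0962 for Tcrg-C1 and 0.969 for Trdc). Against the matched comparators, the related Tcrg-C2 and Tcrg-C4 had log2 fold changes of -0.22 ± 0.06 and -0.29 ± 0.08 (adjusted p = 0.1 and 0.0601). Tcrg-C1 and Tcrg-C2 are nearly identical in sequence, and how reads were divided between them is uncertain. Of the 13 tested genes of a γδ list, Trdc and Tcrg-C1 were called lower (0.342% of all genes were called lower) and 5 had an unadjusted p under 0.05 (6.06% of all genes), with a median log2 fold change of -0.27 against all comparators, beside -0.02 over all genes.

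**Figure D2:**
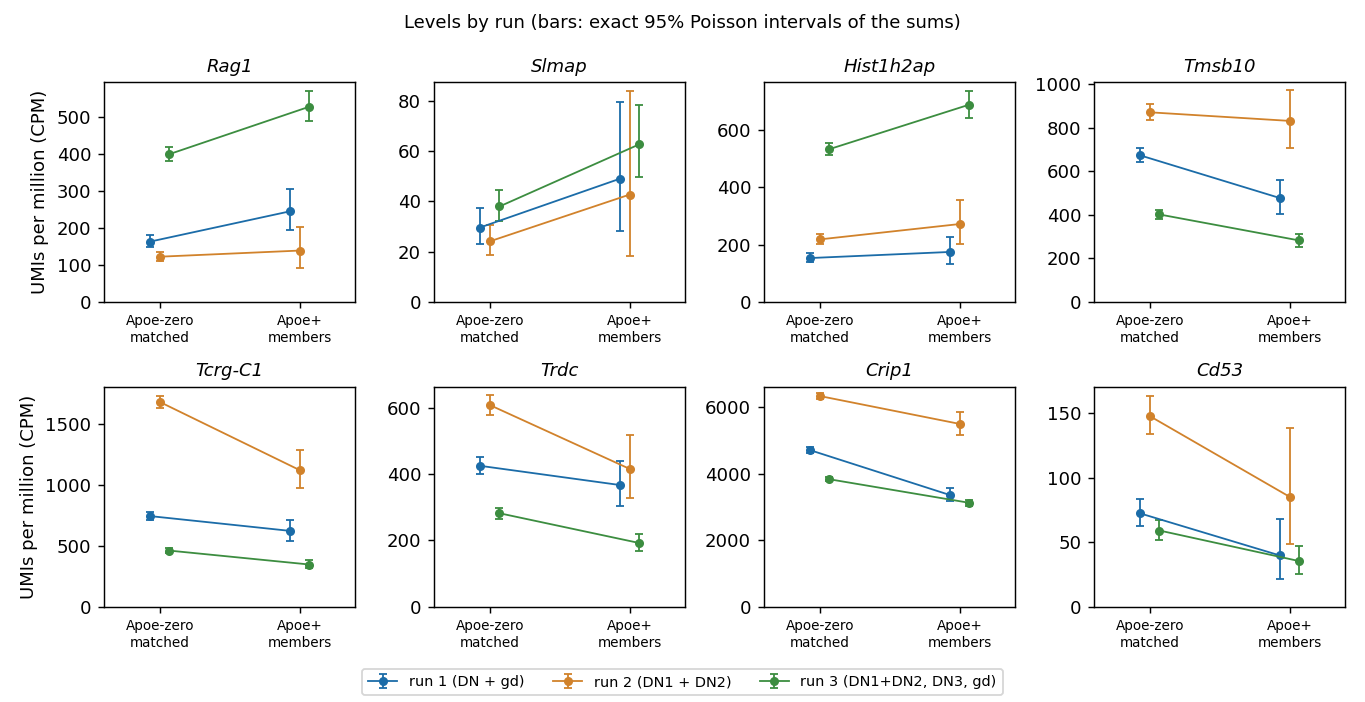
Levels in CPM (y axes, from 0) of 8 genes in the matched Apoe-zero comparators and the Apoe+ members of each run (x axes); bars are exact 95% Poisson intervals of the sums, which cover counting error only. Lines join the classes of one run: Rag1, Slmap and Hist1h2ap are higher, and Tmsb10, Tcrg-C1, Trdc, Crip1 and Cd53 lower, in the members of each run.

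Tmsb10 and Cd53 were lower as well. Tmsb10, an actin-binding thymosin, was at 477, 832 and 282 CPM in the members and 674, 872 and 402 CPM in the matched comparators (log2 fold change -0.40 ± 0.07, adjusted p = 4.5e-05), while against all comparators its log2 fold change was -0.69. Cd53, a tetraspanin of leukocytes, was at 39.8, 85.3 and 35.4 CPM against 72.5, 148 and 59.1 CPM (-0.79 ± 0.18, adjusted p = 0.00884). In both of these genes the members of all 3 runs lay below their comparators. Scin, Vim, Tmem121 and Tuba1b were lower too, with log2 fold changes of -1.25, -0.73, -0.46 and -0.35. Against all comparators without run 3, Tmsb10 and Tmem121 were called, and Cd53, Scin, Vim and Tuba1b were not (adjusted p = 0.0936, 0.31, 0.95 and 0.231). Their log2 fold changes there were -0.95, -1.76, -0.55 and -0.35, against -0.86, -1.20, -1.06 and -0.31 with all runs. Tmem121, Scin and Tuba1b were not called without run 1 (adjusted p = 0.489, 0.323 and 0.111), nor were Scin and Tuba1b without run 2 (adjusted p = 0.235 and 0.73).

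Some abundant genes with small changes were called in both comparisons and are named here after their values were seen. Crip1, a LIM domain protein gene, was at 3357, 5493 and 3121 CPM in the members and 4706, 6331 and 3829 CPM in the matched comparators (log2 fold change -0.33 ± 0.04, adjusted p = 1.97e-17). Plac8 and Lgals1, which encodes galectin-1, fell by 0.32 and 0.31 on the log2 scale (adjusted p = 6.19e-06 and 0.000173). Cd3g, a signalling chain of the T cell receptor complex, fell by 0.16 (adjusted p = 0.0341). Against all comparators, Plac8 was at -0.09 without run 1 (adjusted p = 1), Lgals1 was not called without run 3 (-0.30, adjusted p = 0.0678), and Cd3g was not called without run 2 or run 3 (adjusted p = 0.656 and 0.95). There Crip1 was lower whichever run was left out, with adjusted p between 1e-08 and 0.00024. Among the higher genes, P2rx1 was at 15.3, 10.7 and 22.5 CPM against 6.08, 1.11 and 7.06 CPM and was not called against all comparators without run 3 (1.39, adjusted p = 0.967). Syngr2 was higher in run 3 alone, with a log2 fold change against all comparators of 0.04 without it. Ifitm1 was at 0 in both classes of run 1, and its log2 fold change of 2.24 became -0.72 (adjusted p = 0.993) when cells with a macrophage UMI were removed.

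Ccl5, S100a4 and S100a6 were lower in the members than in all comparators and were not called against the matched ones, which lacked Trac and Cd79a. Ccl5, a chemokine of effector lymphocytes, was at 0, 5.33 and 12.9 CPM in the members and 2.58, 105 and 62.5 CPM in all comparators, with a log2 fold change of -2.55 ± 0.27 (adjusted p = 3.91e-17). Against the matched comparators, at 0, 30 and 22.9 CPM, it was -1.06 ± 0.39 (adjusted p = 0.66). S100a4 went from -2.91 ± 0.33 to -1.40 ± 0.46 (adjusted p = 0.414), and S100a6, Nkg7, Ctsw and H2-D1 likewise were called against all comparators and not against the matched ones. Against all comparators, Ccl5 was called whichever run was left out, at -4.33 without run 3 against -2.55 with all runs. S100a4, S100a6, Nkg7 and Ctsw were not called without run 3. Their log2 fold changes there were -2.32, -1.18, -0.45 and -0.79, against -2.91, -2.17, -0.49 and -0.86 with all runs. Ctsw was not called without run 2, and H2-D1 was not called without any 1 of the 3 runs. In cycling cells, compared with the same exclusions and matching, Ccl5, Nkg7 and H2-D1 were called lower in the cells with Apoe (-1.85, -0.52 and -0.28, adjusted p = 1.82e-05, 0.000345 and 0.0168), and S100a4, S100a6 and Ctsw were not. The Ccl5 UMIs of run 1 lay there in few cells, with 13 UMIs in 1 cell with Apoe and 76 UMIs in 2 cells without. In all, 21 of the 34 lower genes were not called against the matched comparators. Cells with Trac made up 3.45, 13.1 and 5.63% of the comparators in runs 1, 2 and 3, and none of the members by the rule.

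**Figure D3:**
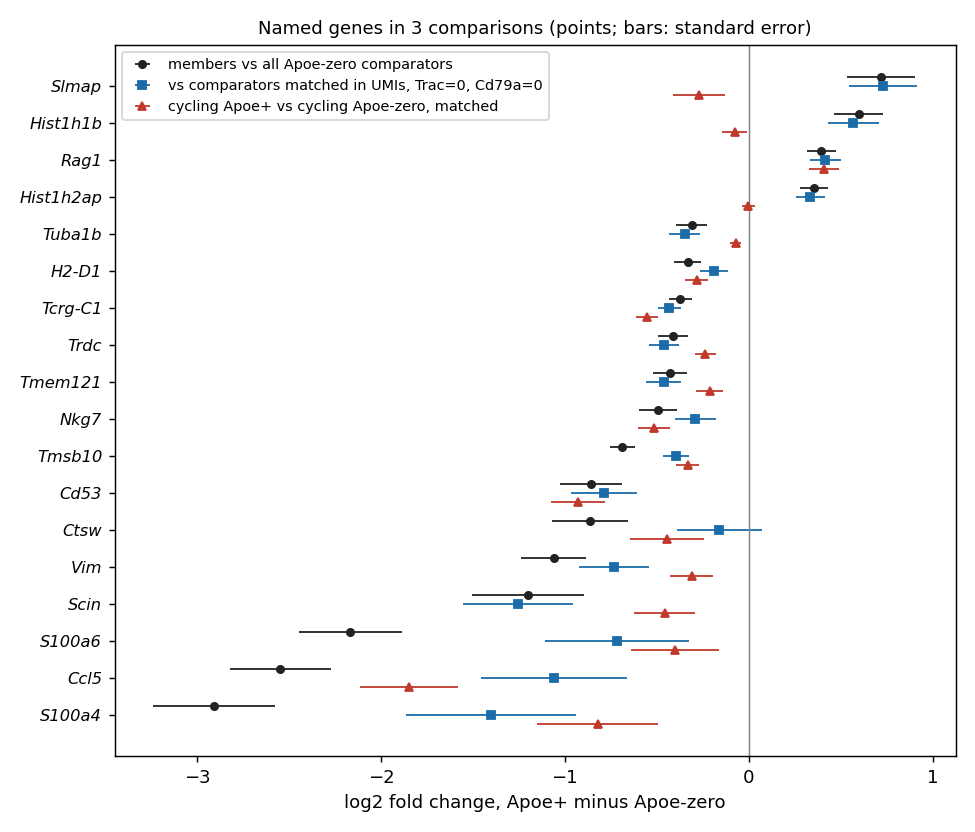
Log2 fold changes (x axis, Apoe+ minus Apoe-zero, points with standard errors) of 18 of the 19 genes that the fixed rule picked (y axis) in 3 comparisons. S100a4, Ccl5 and S100a6 move from -2.91, -2.55 and -2.17 against all comparators to -1.40, -1.06 and -0.72 against matched ones, while Rag1 is at 0.40, 0.42 and 0.41 in the 3 comparisons.

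Cycling Ptcra+ cells were left out by the rule and gave a comparison in other cells of the same libraries. They were split by the same Apoe and Ptcra counts, so that this is not an independent repeat. With the same exclusions, 153, 58 and 198 cycling cells had Apoe in runs 1, 2 and 3, and 389, 293 and 642 cycling cells without Apoe were matched to them in UMIs. Of 9776 genes tested, 7 were higher and 18 lower in the cells with Apoe (0.0716 and 0.184%, together 0.256%). Of the 13 lower genes called in both comparisons of non-cycling cells, 13 were lower here and 8 were called. The median log2 fold change over all genes tested in cycling cells was -0.01. Tcrg-C1 was at 169, 584 and 332 CPM in the cycling cells with Apoe and 280, 978 and 405 CPM in those without (log2 fold change -0.55 ± 0.06, adjusted p = 2.27e-08). Trdc, Tmsb10, Cd53, Crip1, Plac8 and Cd3g were among the others, and Tcrg-C2 and Tcrg-C4 were called here too (-0.33 and -0.42).

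Of the 7 higher genes, 3 had the same sign in cycling cells and 1 was called. This was Rag1, at 78.2, 80.7 and 247 CPM with Apoe and 68.6, 41.8 and 183 CPM without (log2 fold change 0.41 ± 0.08, adjusted p = 0.00626). Hist1h1b, Hist1h2ap and Slmap had log2 fold changes of -0.08, -0.00 and -0.27 in cycling cells. The difference between cycling and non-cycling cells was tested as an interaction and did not pass for these 3 genes (adjusted p = 0.0715, 0.113 and 0.106). Cd74, the invariant chain of antigen presentation, was called higher in the cycling cells with Apoe (1.79), at 81.9, 3.05 and 9.5 CPM against 13.2, 1.56 and 7.73 CPM, but all 155 of its UMIs in run 1 lay in 1 cell. The tested genes of a list of macrophage and dendritic genes, to which Cd74 belongs, had a median log2 fold change of 0.56 in cycling cells, and their part in this result was not tested.

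Levels of 8 of these genes were also set out by the number of Apoe UMIs. The Apoe UMIs chose the members and the genes had already been called on the same sums, so that this is a description from which nothing is read. Tcrg-C1 in run 1 was at 746 CPM in the matched comparators, 662 CPM in members with 1 Apoe UMI and 458 CPM in members with 2 or more. In run 2 it was at 1686, 1289 and 603 CPM, and in run 3 at 462, 381 and 279 CPM. The same order held for Trdc, Cd53 and Rag1 in each run, while Crip1, Tmsb10 and Hist1h2ap in run 2 and Slmap in run 3 did not follow it. The intervals were wide. Those of members with 2 or more overlapped those of the comparators for Rag1 in run 2 and for Trdc and Cd53 in run 1, and neighbouring steps overlapped in other cases too, among them both steps of Rag1 in run 1. Only 12, 8 and 47 members had 2 or more Apoe UMIs, and in each run the member with the most Apoe also held 7, 8 and 21 UMIs of 6 macrophage genes. No test was made of this order.

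**Figure D4:**
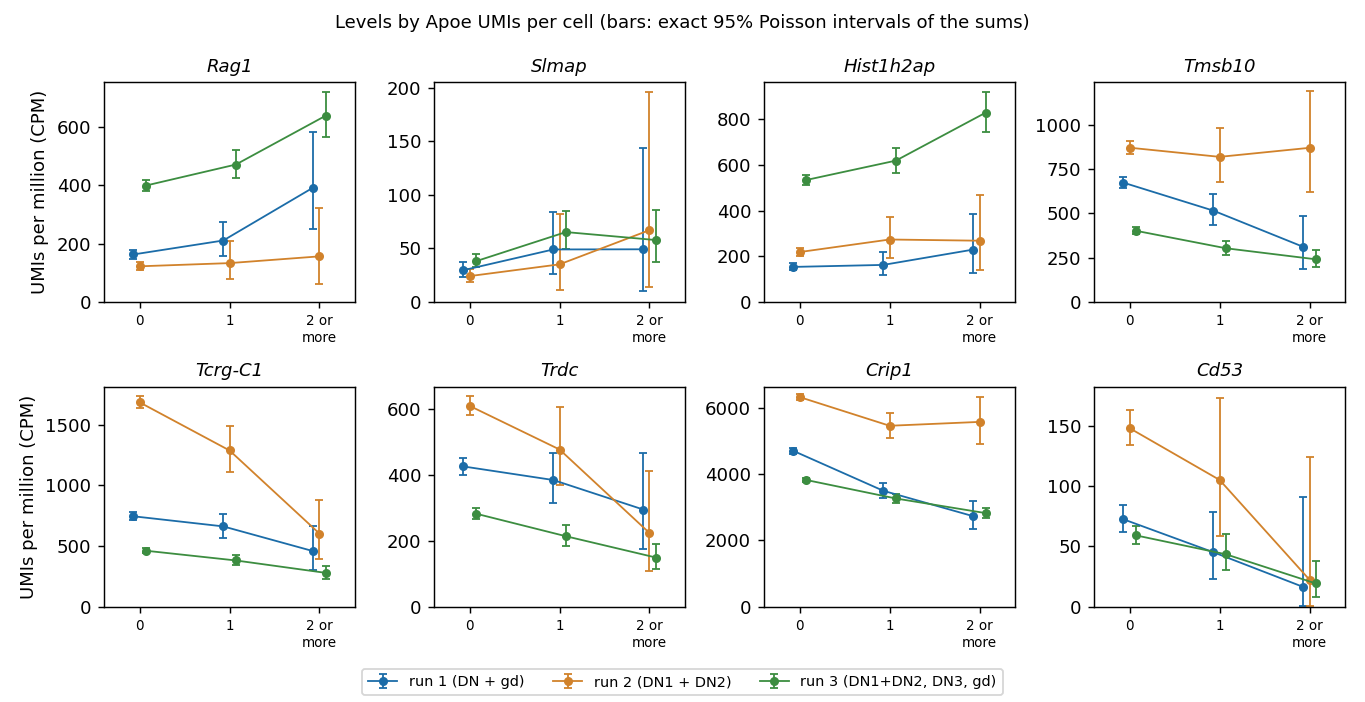
Levels in CPM (y axes, from 0) of 8 genes in matched comparators with 0 Apoe UMIs and in members with 1 and with 2 or more (x axes), by run; bars are exact 95% Poisson intervals of the sums, which cover counting error only. Tcrg-C1, Trdc and Cd53 descend and Rag1 ascends from 0 to 2 or more in each run, among members chosen by these same Apoe UMIs, and many of the intervals overlap.

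The members lay among other Ptcra+ non-cycling cells. Among the 20 nearest Ptcra+ non-cycling cells of each member, 8.33, 3.75 and 18.5% were members in runs 1, 2 and 3. The corresponding shares around the other cells were 7.42, 4.23 and 16.8%, and members made up 6.97, 3.97 and 15.8% of the cells available. In run 3 the share around members was the higher of the pair in each of the 5 settings of genes and components tried, by 18.5 against 16.8% as given and 19.9 against 17% with 30 components, and in runs 1 and 2 the order changed with the setting. The other cells included cells with Trac or Cd79a, which could not be members by the rule. In runs 1, 2 and 3, 1025 of 1063, 765 of 882 and 866 of 946 Ptcra+ non-cycling cells lacked both genes. A lower share around the other cells can follow in part from the rule. No test was made of these shares.

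Few genes of the other lists were called against all comparators, where 0.432% of all genes were called and 6.06% had an unadjusted p under 0.05. Of 20 DN3 stage genes tested, 1 was higher (Rag1) and 1 lower (Cd3g), with a median log2 fold change of -0.01. Of these genes, 5 had an unadjusted p under 0.05 against all comparators and 7 of 20 against the matched ones, where 5.17% of all genes had one. Of 8 genes of natural killer and innate-like cells, 3 were lower (Ccl5, Klrd1 and Nkg7) and 7 had an unadjusted p under 0.05, and none of these was called against the matched comparators, where 2 of 4 tested genes of the list had an unadjusted p under 0.05. In the matched cycling cells, Ccl5 and Nkg7 were called lower, with Ccl5 in run 1 held by the few cells given above. Of 10 Notch target genes, edgeR called 0 (2 with an unadjusted p under 0.05, median 0.04; 1 of 10 against the matched comparators), and of 17 genes of β-selection and receptor signaling it called 0 (5 with an unadjusted p under 0.05, median -0.12; 2 of 16 against the matched comparators).

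Genes of lipid handling did not pass the test, beside the same 0.432% and 6.06% of all genes. Of 7 LXR targets, genes of the sterol-sensing receptors that also control Apoe, and of 9 Apoe receptor genes, edgeR called 0, and 0 had an unadjusted p under 0.05 (medians 0.09 and -0.07). Of 21 cholesterol genes it called 0, with 2 at an unadjusted p under 0.05 (median -0.13) and 4 of 21 against the matched comparators, where 5.17% of all genes had one and again 0 were called. In the comparison with all comparators, 6 of the 21 were lower and 0 higher in all 3 runs, beside 16.9 and 10.7% of all genes. DESeq2 called 0 in each of these lists. The LXR target Abca1, a lipid exporter, was at 0, 5.33 and 5.63 CPM in the members. Apoc1, Apoc2, Apoc4, Nectin2 and Cblc, which neighbour Apoe on chromosome 7, had 0 UMIs in the members. With the other neighbours, of which Tomm40 was the most abundant, the list summed to 254, 128 and 114 CPM in the members and 220, 174 and 120 CPM in the comparators, and 0 of its 3 tested genes were called.

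Macrophage transcripts were found in a few members. C1qa, C1qb or C1qc, complement genes of macrophages, had a UMI in 5 of the 261 members and in 0 of the 2606 comparators, and 20 cells of the whole series had one. The member with the most Apoe in each run, with 6, 5 and 15 UMIs, had 7, 8 and 21 UMIs of C1qa, C1qb, C1qc, Lyz2, Cd68 and Csf1r. The other 4 members with at least 4 Apoe UMIs, all in run 3, had 0. The share of cells with a UMI of these 6 genes was 9.33, 19.4 and 12.7% in the members and 10.3, 16.2 and 16.5% in the comparators. A list of 26 macrophage and dendritic genes, of which Cst3 was the most abundant and Mertk and Siglech were at 0, summed to 226, 827 and 248 CPM in the members and 221, 302 and 346 CPM in the comparators (218, 252 and 280 CPM in the matched ones), and 60% of its UMIs in the members of run 2 lay in 2 cells. Its 11 tested genes had a median log2 fold change of -0.01 against all comparators and 0.60 against the matched ones. In either comparison 0 were called, beside 0.432 and 0.256% of all genes. An unadjusted p under 0.05 was found for 2 and 1 of the 11, beside 6.06 and 5.17% of all genes. With every cell that had one of the 6 genes removed, 7 genes were higher and 36 lower, and Rag1 and Tcrg-C1 had log2 fold changes of 0.44 and -0.43 (adjusted p = 2.81e-05 and 1.15e-08), while Hist1h1b (0.52, adjusted p = 0.0968) and Cd3g (-0.13, adjusted p = 0.12) were no longer called.

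Cells with Cd79a, a B-lineage gene, were kept out by the rule. In run 3, 13 Ptcra+ non-cycling cells with Apoe had a Cd79a UMI, and they held 229 Apoe UMIs, against 232 in the 150 members. A list of 10 other B cell genes, of which Ighm was the most abundant, summed to 425, 315 and 223 CPM in the members. The sums were 396, 349 and 365 CPM in all comparators and 389, 350 and 236 CPM in the matched ones. Against all comparators, 1 of its 3 tested genes was called (0.432% of all genes were), and 2 had an unadjusted p under 0.05 (6.06%). The called gene was Igkc, which was lower in the members (log2 fold change -1.53 ± 0.20, adjusted p = 1.14e-11). Against the matched comparators Igkc was at -0.42 ± 0.22 (adjusted p = 0.983), and 0 of 3 were called. The defining markers Ms4a1 and Pax5 were at 0 in the members. The part of B-lineage RNA in the results was not tested.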

How the data were processed

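The authors aligned 10x reads to mm10 with Cell Ranger and deposited whole-number UMI counts per gene and cell, without normalization. The header of run 3 gives version 4.0.0; the study's methods name this version and an earlier one without assigning them to runs. R 3.6.3 and Seurat 2.3 are named in the submitters' processing notes. Members and lists were chosen with earlier results of these data known. Cells are not replicates, and each sort was made once. Counts were summed per run and class and tested in edgeR 4.0.16 (limma 3.58.1, R 4.3.3) with TMM, filterByExpr, the run as a block, the two-sided quasi-likelihood F test and Benjamini-Hochberg adjustment. The main fit has 2 residual degrees of freedom and infinite prior degrees of freedom. Its errors and p-values therefore rest on the trend across genes and not on each gene's own spread between runs. The prior was infinite against the matched comparators too. It was finite in some other fits, among them the cycling comparison (46.9) and, against all comparators, those without run 2 (392) and without the block (3.9). The named genes were up to 15 in each direction of largest change among those with an adjusted p under 0.05 against all and against depth-matched comparators, with the same direction in 3 runs and at least 20 CPM in one class. Matched comparators, cycling cells, the interaction and the robust prior were added after the data had been seen. Scrublet (scanpy 1.11.5) gave doublet scores, and high-scoring cells stayed in, except in 1 alternative. Neighbors used 2000 variable genes and 15 principal components. In counts simulated for the members and comparators (10024 genes tested), edgeR recovered 15 of 67 genes changed 1.5-fold, 41 of 66 changed 2-fold and 53 of 65 changed 4-fold, with 7 false calls. DESeq2 recovered 1, 19 and 37 of the same genes, in that order, with 0 false calls. In these counts every gene had the same dispersion (spread beyond counting error), the median of the main edgeR fit at 0.00424. The simulation therefore cannot show how many false calls arise where genes differ in their spread between runs. Some genes that the rules picked are not reported here.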

Additional observations from a re-analysis of the deposited data

Results flagged for a closer look

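Fosb, an AP-1 transcription factor gene that responds quickly to stimulation, differed between cycling and non-cycling cells in the contrast of cells with and without Apoe. Its log2 fold change was 0.66 in cycling cells (adjusted p = 0.000331) and -0.44 in non-cycling cells (adjusted p = 0.414), a difference of 1.15 ± 0.17 (SE, edgeR interaction, adjusted p = 3.48e-07 over 10204 genes tested, of which 1 was called). In non-cycling cells Fosb was at 9.18, 80 and 108 CPM in the members of runs 1, 2 and 3 and 3.24, 52.9 and 164 CPM in the matched comparators, so that the direction was lower in run 3 only.

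Apoe was at 1038 CPM in the Cd79a+ Ptcra-zero cells of run 3, which none of the gene comparisons used. This is above the 22.6 CPM of the Nkg7+ Trac+ lymphocytes of that run, and above the 5.39 CPM of those without Cd79a.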

How the results depend on the processing

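All 19 genes that the naming rule picked kept their direction under each of the 15 alternatives, while few kept their side of the threshold under some of them: 0 were called without the run as a replicate block, 2 with DESeq2, 5 without run 3 and 6 with at least 2 Apoe UMIs per member. The number of higher and lower genes was 0 and 0 with no replicate block, 0 and 4 with DESeq2, and 1 and 7 with at least 2 Apoe UMIs. RLE size factors gave 17 higher genes and the 5% mitochondrial limit gave 5. Lower genes numbered 16 against comparators without Trac and Cd79a, 13 when these were also matched in UMIs, and 22 with high Scrublet scores removed. Leaving out 1 run in turn gave 2 to 8 higher and 9 to 26 lower genes, with the lowest numbers without run 3. Ifitm1 turned to -0.72 without cells that had a macrophage UMI. The share of Ptcra+ non-cycling cells with Apoe was 1.22, 0.907 and 5.71% at 2 or more Apoe UMIs, and 4.97, 2.22 and 6.36% when cells were thinned before gating, and 67 members remained at 2 or more. The share of members among neighbours was 5.69 and 2.36% in run 2 with 1000 and 3000 variable genes, and 15.9 and 19.9% in run 3 with 1000 variable genes and 30 principal components. Apart from what the settings themselves remove (cells, runs or genes), the cause of these changes was not tested. With 36 members in run 2 and a single Apoe UMI in most members, depth limits how many cells can be told from Apoe-zero cells.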
